A study of Mus musculus with 12 samples.

Results

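The set described here holds 40 genes of liver fatty acid oxidation and of the response to the nuclear receptor PPARalpha. The genes are known PPARalpha targets or enzymes of fatty acid use, listed by name, and no difference between groups entered the rule. They were, however, chosen with earlier results of these data known. A gene was taken as the RefSeq transcripts of its symbol, and its brightest probe over the 12 arrays stood for it. All 40 of 40 had a probe well above background on 12 of 12 arrays, and they are 40 of the 26405 genes tested.

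Liver RNA of 12 male mice was hybridised to one-colour (Cy3) Agilent mouse expression arrays, 1 mouse per array. The 4 groups of 3 mice were IAP knockout (Akp3-/-) mice given IIAEK, IAP knockout mice given vehicle, wild-type mice given IIAEK and wild-type mice given vehicle. IIAEK is a pentapeptide that lowers cholesterol, per the labels. It was given by mouth at 600 mg/kg per day for 14 days, and vehicle was carboxymethylcellulose sodium salt at 5 g/L. One label field of the IIAEK mice gives weeks in place of days, and the titles' 14 days were used. Mice of both genotypes were 7 weeks old, and livers were taken after 8 h without food. IAP is an intestinal alkaline phosphatase encoded by Akp3. Both Akp3 probes (2 of 2) were above background on 0 of 12 arrays, so the arrays give no check of the genotype labels.

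PPARalpha is a nuclear receptor that fatty acids activate. In fasted liver it pairs with the retinoid X receptor and turns on genes that carry fatty acids into mitochondria and peroxisomes and oxidise them there. Microsomal CYP4A enzymes add an omega-oxidation route, acyl-CoA thioesterases release free fatty acids from their CoA esters, and secreted products such as FGF21 and ANGPTL4 act on other tissues. The pair of receptors binds a direct repeat called DR1, in which a base separates both copies.

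The DR1 element was searched for in RefSeq promoters (build GRCm38.p6, 250 bases before to 50 bases after a gene's start), since these genes are known for that element. The letters searched were AGGTCANAGGTCA on both strands, and no other motif was searched. Promoters were given for 33 of the 40 genes, in 38 promoters. The exact element was in 0 of 38, against 13 of all 32851 promoters (0.04%). With up to 2 mismatches it was in 6 of 38 (15.8%), against 3.86% of all promoters. The sequences below show these 6 matches, which are the stretches of the set's promoters closest to the element. A match is a description of letters and not a binding site. Fabp1 had 1 mismatch and lay 67 bases before the start, and the other 5 genes had 2 mismatches. The 13 bases are written in the direction of the repeat.
Fabp1: AGGCCATAGGTCA
Acot4: CGGCCAAAGGTCA
Cd36: AAGTCAGAGGCCA
Creb3l3: AGGGGAGAGGTCA
Plin2: AGGTCAGGGGTCC
Slc25a20: AGGTGAAAGGTCG

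The Fabp1 promoter, which held the closest match, and the Plin2 promoter are printed whole, because Fabp1 and Plin2 are among the genes named below. They lie at chr6:71199629-71199928 on the plus strand and chr4:86670010-86670309 on the minus strand. Capitals mark the match, which lies on the opposite strand in both and so reads as the reverse complement of the letters above.
Fabp1 promoter: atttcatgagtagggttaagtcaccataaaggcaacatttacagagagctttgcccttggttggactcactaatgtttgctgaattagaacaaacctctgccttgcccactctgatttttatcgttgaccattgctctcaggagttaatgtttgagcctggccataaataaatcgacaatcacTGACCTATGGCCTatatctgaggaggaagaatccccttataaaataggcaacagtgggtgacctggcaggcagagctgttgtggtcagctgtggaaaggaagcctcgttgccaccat
Plin2 promoter: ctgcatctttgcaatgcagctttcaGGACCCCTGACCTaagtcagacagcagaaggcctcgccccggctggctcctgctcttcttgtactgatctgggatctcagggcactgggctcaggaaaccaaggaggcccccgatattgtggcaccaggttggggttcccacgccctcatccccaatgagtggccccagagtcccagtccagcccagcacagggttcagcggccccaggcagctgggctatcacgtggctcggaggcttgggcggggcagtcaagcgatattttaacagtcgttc

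Levels are given below on a log2 scale, as the scanner's processed signal over the 75th percentile of its array. A log2 change is a difference of mean levels, with its SE from limma. Slide 1 carried 4 arrays, namely each group's replicate 1, and slide 2 the 8 arrays of replicates 2 and 3. The arrays' 75th percentile signal ran from 314.6 to 529.4, and 56.8% to 61.9% of probes were above background. All 14 of 14 hepatocyte markers were above background on every array. On the first principal component (55.4% of the variance), 4 vehicle arrays stood apart from the other 8, at 74.1 to 88.1 against -57.3 to -11.3. They were knockout vehicle 1 and 3 and wild-type vehicle 2 and 3. Of 18 pancreas acinar markers, 10 to 16 were above background. The median level of the 13 tested ones on wild-type vehicle 1 lay 2.51 above the 12-array mean. The summed signal of the pancreas markers, over the 75th percentile, was 18.7 to 23.1 in knockout IIAEK, 14.3 to 19.0 in knockout vehicle, 18.1 to 21.8 in wild-type IIAEK and 13.8 to 41.8 in wild-type vehicle. The median of the 12 tested small intestine markers stood 0.80, 2.41 and 0.78 above the 12-array mean on the wild-type vehicle arrays. A marker was tested if above background on every array of at least 1 group. Markers of both lists could thus enter through the group where they were high. Of all 18 small intestine markers, 18 were above background on wild-type vehicle 2 and 7 to 13 on the other arrays. Their summed signal ran otherwise, with 259.8 to 463 in knockout IIAEK, 226 to 426 in knockout vehicle, 233 to 259.7 in wild-type IIAEK and 198 to 347 in wild-type vehicle, and wild-type vehicle 1 was the lowest of the 12 arrays. In whole liver, fewer cells of a type and less RNA per cell cannot be told apart.

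Most of the set was high on the same arrays and low on the same arrays, and the division was not that of the 4 groups. The median over the 40 genes of the level minus the gene's 12-array mean was -0.063, -0.030 and 0.13 in knockout IIAEK and -0.18, 0.40 and -0.35 in knockout vehicle. It was 0.058, 0.46 and 0.32 in wild-type IIAEK and 0.24, -0.60 and -0.46 in wild-type vehicle. Within each vehicle group, knockout vehicle 2 and wild-type vehicle 1 were thus high and the other 2 arrays low, and those low ones are the 4 arrays that stood apart. Of the 40 genes, 38 lay above their own mean on knockout vehicle 2 and 34 on wild-type vehicle 1, against 14 and 5 on knockout vehicle 1 and 3 and 3 and 6 on wild-type vehicle 2 and 3. Cidec, Cd36, Fgf21, Acot2 and Cpt1a did not follow the others. Of the arrays apart, Cpt1a had 5.75 and 5.68 on knockout vehicle 1 and 3 and 5.56 on wild-type vehicle 3. Those lay above its 12-array mean of 5.50, whereas wild-type vehicle 2 lay below it (4.90). Cd36, a fatty acid uptake protein, had 1.92, 1.92 and 1.42 in knockout IIAEK and 3.29, 1.45 and 2.98 in knockout vehicle. It had 1.83, 1.50 and 2.17 in wild-type IIAEK and 1.40, 3.92 and 3.29 in wild-type vehicle, so its 4 highest values were those of the 4 arrays apart. The summed signals of some cell type markers divided the arrays in the same way. The summed signal of hepatocyte markers was 5823 to 7111 on the 4 arrays apart and 7394 to 10792 on the other 8, the highest on wild-type vehicle 1. Endothelium markers (10 of 10 above background) summed to 72.2 to 79.0 on the 4 arrays apart and 90.1 to 102 on the other 8. By summed signal both lists were thus lower where the set was low, without overlap. The median level of the endothelium markers over their 12-array mean did overlap. On the arrays apart it was -0.025 and 0.085 in knockout vehicle 1 and 3 and -0.43 and -0.24 in wild-type vehicle 2 and 3. On the other 8 arrays it ran from -0.11 to 0.21. Macrophage and Kupffer cell markers (15 of 15 above background on every array) summed to 278 to 329.6 on the 4 arrays apart and 108 to 197 on the other 8. The part of these lists in the results was not tested.

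**Figure D1:**
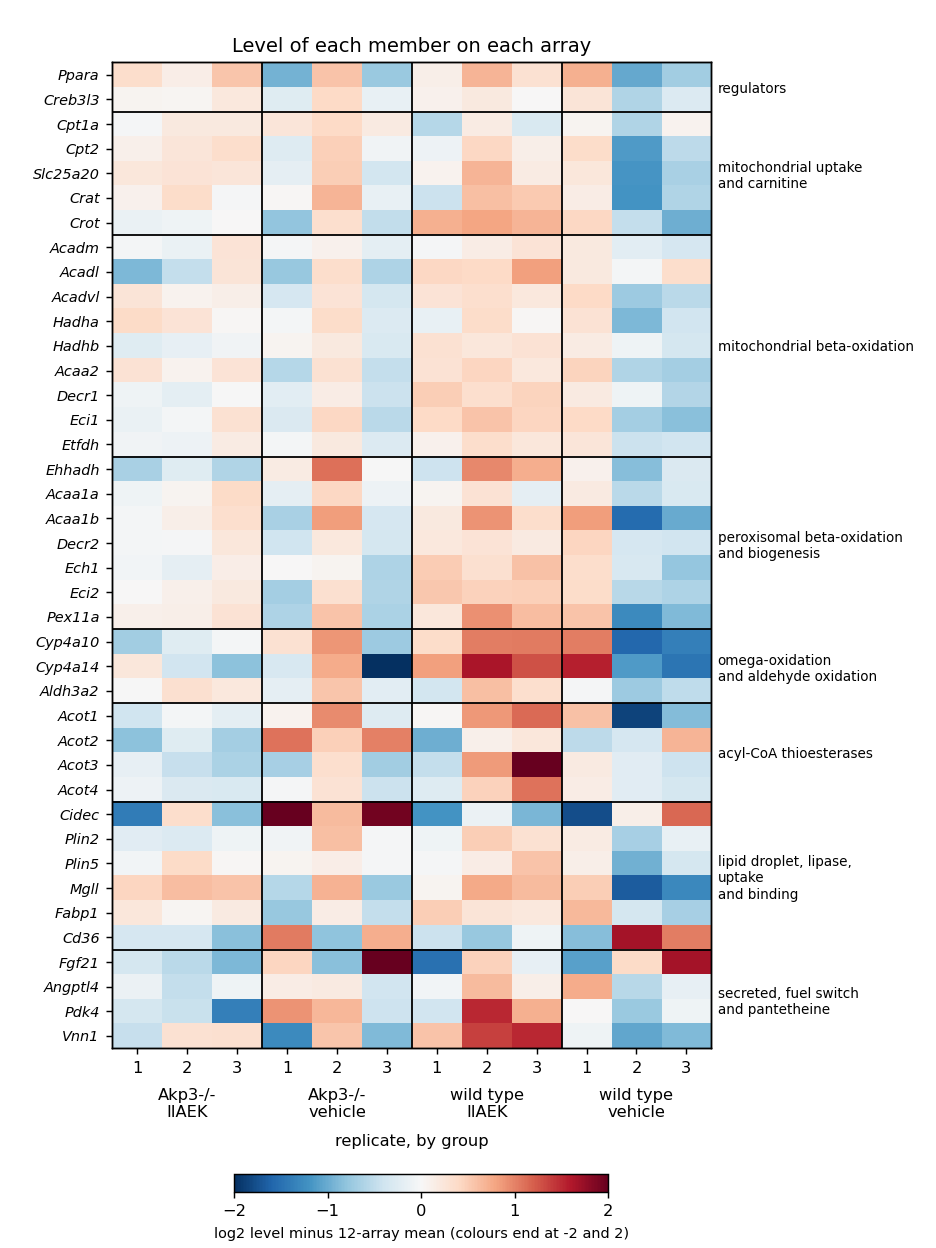
Each cell is the log2 level of a gene on an array minus its mean over the 12 arrays, red above and blue below that mean, with genes grouped by role and arrays by group. Knockout vehicle 2 and wild-type vehicle 1 are mostly red (38 and 34 of 40 genes above their mean), whereas knockout vehicle 3 and wild-type vehicle 2 are mostly blue (5 and 3 of 40). Cd36 and Fgf21 run the other way, as does Cidec except on knockout vehicle 2 (3.09 against a mean of 2.46).

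**Figure D2:**
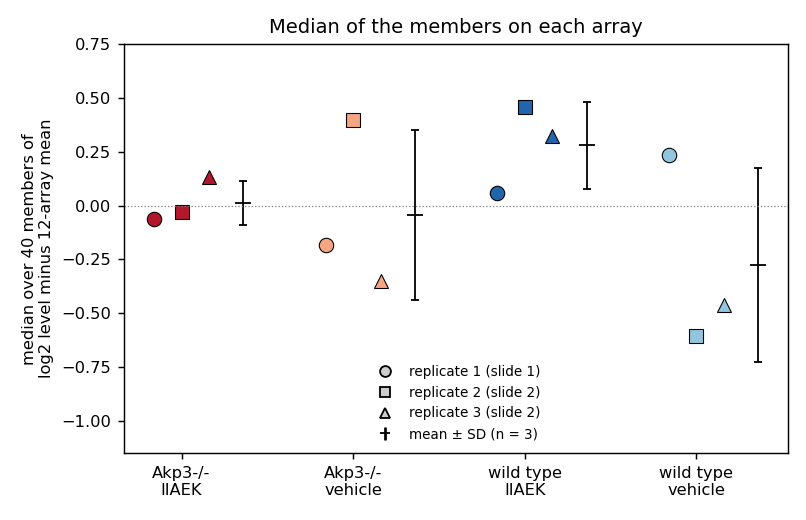
Each point is the median over the 40 genes of the log2 level minus the gene's 12-array mean on an array, with the group mean ± SD (n = 3) beside it and the replicate number given by the symbol. The vehicle groups spread from -0.35 to 0.40 in knockout and from -0.60 to 0.24 in wild type, wider than the IIAEK groups.

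The comparison of IIAEK with vehicle in wild-type mice asks what the peptide does to these genes where IAP is present. The log2 change was positive in 35 of 40 genes and negative in 5, with a median of 0.59, against a median of 0.046 over all genes tested. No gene of the set passed (0 of 40, limma adjusted p under 0.05), against 0.00379% of all genes. At unadjusted p under 0.05, 12 of 40 were higher (30.0%), against 6.02% of all genes, and 0 were lower, against 6.63%. In 7 of 40 (17.5%) all IIAEK arrays lay above all vehicle arrays, against 7.26% of all genes. These were Vnn1, Crot, Decr1, Eci1, Eci2, Hadhb and Acadl. All 9 genes of mitochondrial beta-oxidation, all 7 of peroxisomal oxidation and biogenesis and all 3 of omega-oxidation had a positive change, with medians of 0.41, 0.76 and 1.45.

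Vnn1, a pantetheinase that makes pantothenic acid and cysteamine, had 2.83, 3.63 and 3.77 in wild-type IIAEK and 2.18, 1.23 and 1.38 in wild-type vehicle. The groups did not overlap, and the signal was 3.53-fold higher (log2 change 1.82, SE 0.46, adjusted p = 0.393). Crot, the peroxisomal carnitine octanoyltransferase, had 7.27, 7.34 and 7.23 in wild-type IIAEK and 6.97, 6.07 and 5.58 in wild-type vehicle (log2 change 1.07, SE 0.34). All 3 IIAEK values of Crot lay within a narrow band above the highest vehicle value, that of replicate 1. Decr1, the mitochondrial dienoyl-CoA reductase for unsaturated fatty acids, had 7.48, 7.33 and 7.44 in wild-type IIAEK and 7.17, 6.90 and 6.40 in wild-type vehicle (log2 change 0.59, SE 0.21). Ech1, a dienoyl-CoA isomerase, had a log2 change of 0.72 (SE 0.27), and here wild-type vehicle 1 lay among the IIAEK arrays. The adjusted p of these 4 genes was 0.393. The 5 genes with a negative change were Cd36 (-1.04, SE 0.61), Fgf21 (-0.72, SE 0.85), Cidec (-0.57, SE 0.71), Acot2 (-0.16, SE 0.38) and Cpt1a (-0.076, SE 0.22).

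This result turned on 1 array and on the slide. On slide 1 alone, with wild-type vehicle 1 as the vehicle array, the set's median was -0.24 with 10 of 40 genes positive, and on slide 2 it was 1.01 with 36 of 40 positive. Without wild-type vehicle 1, 20 of 40 genes passed (19 higher, and Cd36 lower), against 14.9% of all genes. Among them were Cyp4a10 (log2 change 2.28), Vnn1 (2.11), Acot1 (2.03) and Mgll (1.96). When the 4 arrays apart were left out, so that wild-type vehicle 1 was the only vehicle array of its genotype, the median was 0.079 with 23 positive. Vnn1 kept its direction on both slides (0.65 on slide 1 and 2.40 on slide 2) and without those arrays (1.24). Crot gave 0.30, 1.46 and 0.31 in the same settings, and Decr1 0.31, 0.73 and 0.24. Cyp4a10 gave -0.65, 2.50 and -0.20. Fasting and insulin response genes had a median level over their 12-array mean of -0.10, -0.18 and -0.17 in wild-type IIAEK and 0.34, 0.31 and 0.34 in wild-type vehicle, which did not overlap, whereas their summed signals did (519.8 to 741 in wild-type IIAEK and 703 to 1052 in wild-type vehicle). The part of this list, and of the pancreas and intestinal transcripts of the wild-type vehicle arrays, was not tested.

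**Figure D3:**
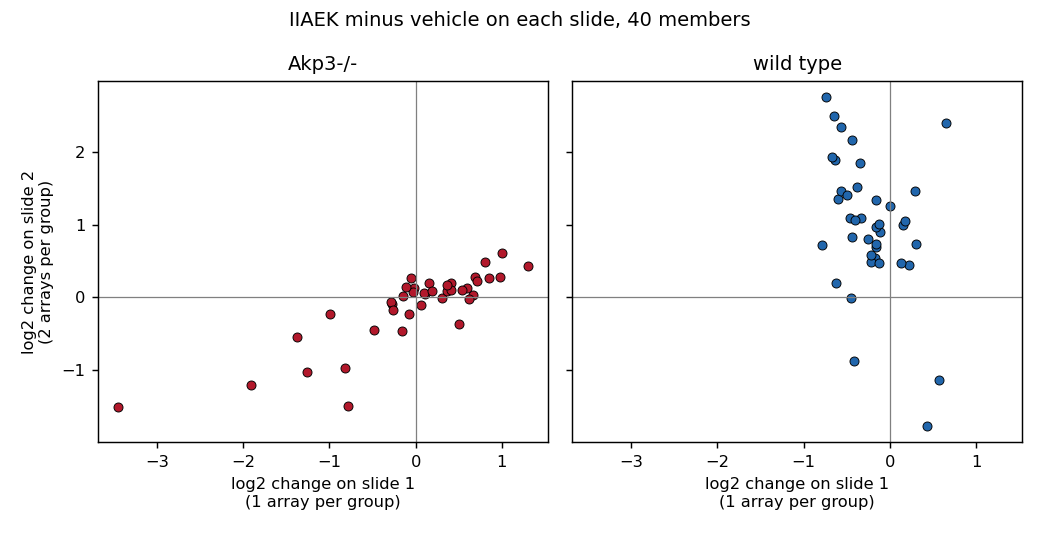
Each point is a gene of the set, with its log2 change (IIAEK minus vehicle) on slide 1, from 1 array per group, against that on slide 2, from 2 arrays per group, for knockout at left and wild type at right. In wild type the slide 1 median is -0.24 and the slide 2 median 1.01, and in knockout they are 0.11 and 0.051.

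The same comparison in knockout mice asks what IIAEK does without IAP. The log2 change was positive in 24 of 40 genes and negative in 16, with a median of 0.077, against 0.044 over all genes. No gene passed (0 of 40, limma), against 0% of all genes. At unadjusted p under 0.05, 4 of 40 were lower, against 2.67% of all genes, and 0 were higher, against 3.62%. All IIAEK arrays lay below all vehicle arrays in 4 of 40 genes, against 6.26% of all genes, and above them in 0 of 40, against 8.77%. The 4 were Acot2, Cidec, Ehhadh and Plin2.

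Cidec, a lipid droplet protein that promotes droplet growth, had 1.06, 2.82 and 1.63 in knockout IIAEK and 4.51, 3.09 and 4.39 in knockout vehicle. Its signal was 4.46-fold lower (log2 change -2.16, SE 0.71, adjusted p = 0.664), and the change was -3.45 on slide 1, -1.51 on slide 2 and -1.25 without the 4 arrays apart. Acot2, a mitochondrial acyl-CoA thioesterase, had 1.25, 1.84 and 1.40 in knockout IIAEK and 3.15, 2.55 and 3.09 in knockout vehicle. Its log2 change was -1.44 (SE 0.38, adjusted p = 0.664), with -1.91 on slide 1, -1.20 on slide 2 and -1.06 without the 4 arrays apart. Both genes were thus lower with IIAEK in each of these settings. Ehhadh, the bifunctional enzyme of peroxisomal beta-oxidation, had 5.89, 6.30 and 5.94 in knockout IIAEK and 6.71, 7.64 and 6.54 in knockout vehicle (log2 change -0.92, SE 0.40, adjusted p = 0.664). Pdk4, a kinase that shuts off pyruvate dehydrogenase and so spares glucose, had 1.72, 1.64 and 0.71 in knockout IIAEK and 2.99, 2.74 and 1.66 in knockout vehicle (log2 change -1.10, SE 0.50). Knockout vehicle 3 overlapped the IIAEK arrays for Pdk4, whereas all vehicle values of Ehhadh lay above them. On slide 1, slide 2 and without the 4 arrays apart the change was -0.82, -0.97 and -1.60 for Ehhadh and -1.26, -1.03 and -1.38 for Pdk4. The positive changes with the smallest p were those of Fabp1 (0.51, SE 0.32), Ppara (0.72, SE 0.47), Acaa2 (0.46, SE 0.31) and Mgll (0.75, SE 0.52), with adjusted p = 0.664 for all 4. Without the 4 arrays apart, which leaves knockout vehicle 2 alone, 38 of 40 genes had a negative change, with a median of -0.32. Fasting and insulin response genes (14 of 14 above background on each array) had a summed signal of 511 to 626 in knockout IIAEK and 662 to 1329 in knockout vehicle, which did not overlap. Their median levels over the 12-array mean did, at -0.12, -0.13 and -0.37 in knockout IIAEK and 0.48, -0.068 and -0.12 in knockout vehicle. Red blood cell markers (7 of 9 above background on each of these arrays) summed to 292 to 359.9 in knockout IIAEK and 548 to 1108 in knockout vehicle. The part of either list in the result was not tested.

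**Figure D4:**
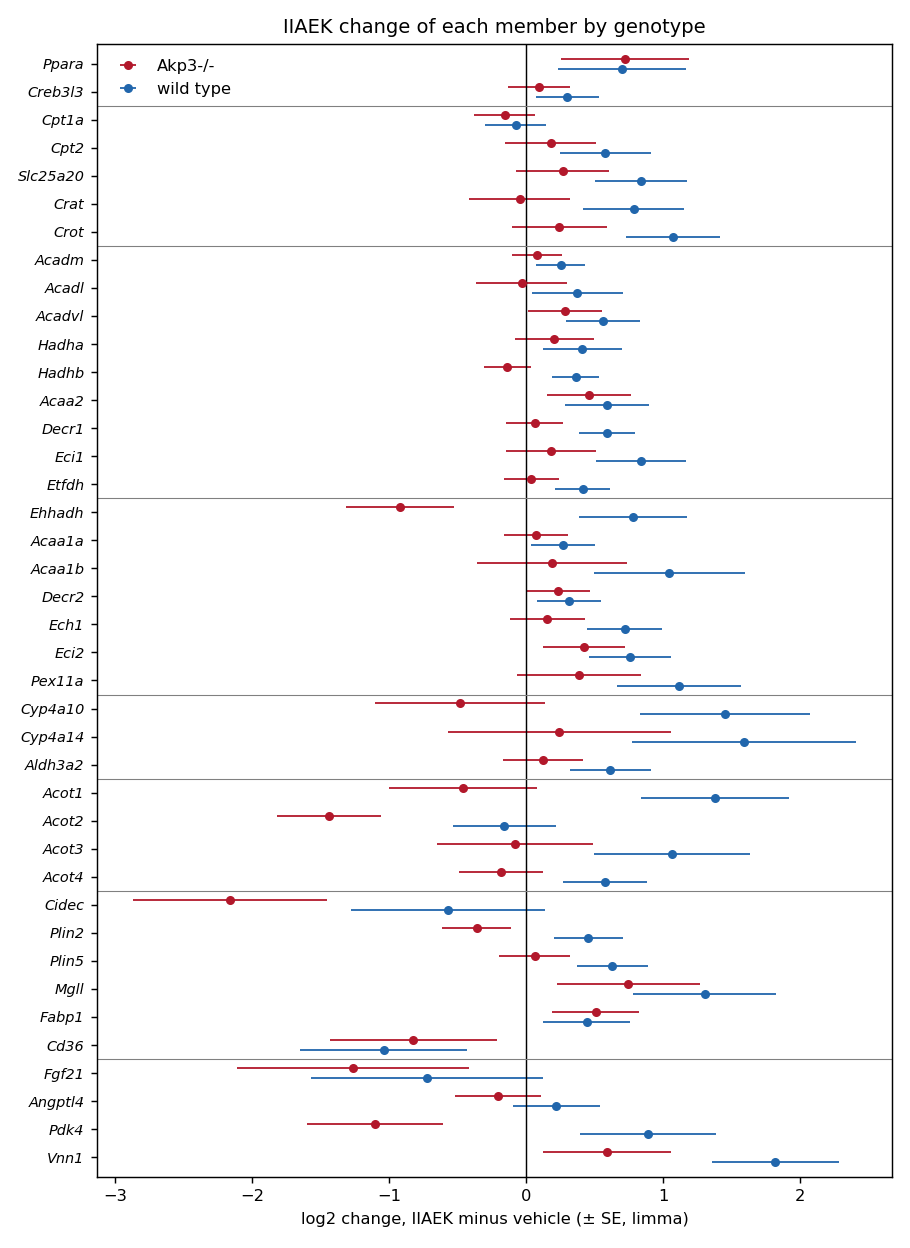
Each point is the log2 change of a gene (IIAEK minus vehicle) with its SE from limma, knockout in red above wild type in blue, and grey lines divide the roles. Most wild-type points lie right of 0 (35 of 40), fewer knockout points do (24 of 40), and Cidec, Acot2, Ehhadh and Pdk4 lie left of it in knockout.

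Knockout against wild type under vehicle asks how the genotypes differ without IIAEK. The loss of Akp3 and any other difference between the genotypes cannot be told apart here. The log2 change was positive in 31 of 40 genes, with a median of 0.22, against -0.053 over all genes. No gene passed (0 of 40, limma), against 0.00379% of all genes. At unadjusted p under 0.05, 2 of 40 were higher (5.0%), against 2.83% of all genes, and 0 were lower, against 3.79%. The groups were apart and higher in knockout for 1 of 40 (2.5%), against 3.15%. That gene was Cpt1a, the outer-membrane carnitine palmitoyltransferase that sets the rate of mitochondrial fatty acid entry. Cpt1a had 5.75, 5.90 and 5.68 in knockout vehicle and 5.55, 4.90 and 5.56 in wild-type vehicle (log2 change 0.44, SE 0.22, adjusted p = 0.737). The other positive changes with the smallest p were Cidec (1.70, SE 0.71), Acot2 (0.92, SE 0.38) and Crat (0.74, SE 0.37), the carnitine acetyltransferase. The negative ones were Acadl (-0.51, SE 0.33), Cd36 (-0.29, SE 0.61), Fabp1 (-0.24, SE 0.32) and Decr2 (-0.084, SE 0.23). The direction of the set turned with the slide, with a median of -0.45 on slide 1 and 0.58 on slide 2, and it was 0.068 without the 4 arrays apart. Each slide held a different mix of the arrays that stood apart, knockout vehicle 1 on slide 1 and the other 3 on slide 2.

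Knockout against wild type under IIAEK uses no vehicle array, so the 4 arrays apart do not enter its means. They do enter its SE and p, which rest on the spread within all 4 groups. For Crot the SD was 0.076 in knockout IIAEK and 0.056 in wild-type IIAEK. Under vehicle it was 0.59 in knockout and 0.71 in wild type (n = 3 each). In limma fits on the compared groups, 0 genes of the set passed here as well. The log2 change was negative in 33 of 40 genes and positive in 7, with a median of -0.28, against -0.022 over all genes. No gene passed (0 of 40, limma), against 0.00757% of all genes. At unadjusted p under 0.05, 8 of 40 were lower (20.0%), against 4.53% of all genes, and 0 were higher, against 3.3%. In 12 of 40 (30.0%) all knockout arrays lay below all wild-type arrays, against 14.6% of all genes. The median was negative on both slides, -0.10 on slide 1 (26 of 40 negative) and -0.37 on slide 2 (35 of 40).

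Acadl, the long-chain acyl-CoA dehydrogenase, had 3.59, 4.03 and 4.75 in knockout IIAEK and 4.91, 4.90 and 5.31 in wild-type IIAEK (log2 change -0.92, SE 0.33, adjusted p = 0.628). Hadhb, the thiolase subunit of the mitochondrial trifunctional protein, had 6.26, 6.34 and 6.42 in knockout IIAEK and 6.80, 6.72 and 6.78 in wild-type IIAEK (log2 change -0.43, SE 0.17). For both genes the groups did not overlap, and the change was -1.32 for Acadl and -0.54 for Hadhb on slide 1 and -0.72 and -0.37 on slide 2. Crot had 6.42, 6.46 and 6.56 in knockout IIAEK, against 7.27, 7.34 and 7.23 in wild-type IIAEK (-0.80, SE 0.34). Vnn1 had 1.80, 2.57 and 2.58 in knockout IIAEK, against 2.83, 3.63 and 3.77 in wild-type IIAEK (-1.10, SE 0.46). Decr1 had 6.90, 6.79 and 6.99 in knockout IIAEK (-0.53, SE 0.21), and its 3 values lay below those of wild-type IIAEK given above. Pdk4 differed by -1.34 (SE 0.50), but the groups overlapped and the change was 0.018 on slide 1 and -2.02 on slide 2. The other genes whose groups did not overlap were Cyp4a14, Ech1, Cyp4a10, Acot1, Angptl4, Eci1 and Eci2. The positive changes with the smallest p were those of Cpt1a (0.36, SE 0.22), Hadha (0.15, SE 0.29), Cpt2 (0.089, SE 0.33) and Acaa1a (0.070, SE 0.24), with adjusted p from 0.652 to 0.949. The adjusted p of Pdk4, Decr1 and Hadhb was 0.628, as for Acadl. Circadian clock genes (13 to 15 of 15 above background) summed to 74.2, 74.1 and 135 in knockout IIAEK and 62.2 to 72.5 in wild-type IIAEK. The margin was thus small except on knockout IIAEK 3. The clock genes did not move together, with 10 of 15 higher and 5 lower in knockout (log2 changes from -0.54 to 2.73). Red blood cell markers (7 to 9 of 9) summed to 292 to 359.9 in knockout IIAEK and 491 to 1399 in wild-type IIAEK. Neither pair of ranges overlapped, and the part of these lists in the result was not tested.

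Whether the IIAEK response depends on genotype is the difference between both IIAEK changes, knockout minus wild type. It was negative in 37 of 40 genes, with a median of -0.55, against 0.0059 over all genes. No gene passed (0 of 40, limma), against 0% of all genes. At unadjusted p under 0.05, 5 of 40 were lower (12.5%), against 0.67% of all genes, and 0 were higher, against 0.894%. They were Ehhadh (-1.70, SE 0.56), Pdk4 (-1.99, SE 0.70), Acot1 (-1.84, SE 0.76), Acot2 (-1.28, SE 0.54) and Plin2 (-0.81, SE 0.36), with adjusted p = 1.0 for Ehhadh. The 3 genes with a positive difference were Cd36 (0.22, SE 0.86), Fabp1 (0.067, SE 0.45) and Ppara (0.019, SE 0.66). In 11 of 40 genes the IIAEK change was negative in knockout and positive in wild type, and in 24 it was positive in both. For Ehhadh the wild-type levels were 6.14, 7.51 and 7.28 with IIAEK and 6.63, 5.70 and 6.25 with vehicle (log2 change 0.78, SE 0.40), opposite in sign to the knockout change given above. For Pdk4 they were 1.71, 3.59 and 2.79 with IIAEK and 2.09, 1.33 and 2.0 with vehicle (log2 change 0.89, SE 0.50). In both genes wild-type IIAEK 1 lay among the vehicle arrays. The set's median difference was 0.34 on slide 1, -0.91 on slide 2 and -0.38 without the 4 arrays apart. Ehhadh (-0.32 and -2.39), Pdk4 (-0.88 and -2.55) and Acot2 (-1.46 and -1.19) were negative on both slides. Acot1 (0.083 and -2.81) and Plin2 (0.096 and -1.27) were not.

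Averaged over both genotypes, the IIAEK change was positive in 33 of 40 genes and negative in 7, with a median of 0.36, against 0.047 over all genes. No gene passed (0 of 40, limma), against 0% of all genes. At unadjusted p under 0.05, 11 of 40 were higher (27.5%), against 11.8% of all genes, and 2 of 40 were lower (5.0%), against 11.1%. The positive changes with the smallest p were Vnn1 (1.21, SE 0.33, adjusted p = 0.181), Eci2 (0.59, SE 0.21), Mgll (1.02, SE 0.37) and Crot (0.66, SE 0.24). The negative ones were Acot2 (-0.80, SE 0.27), Cidec (-1.36, SE 0.50), Cd36 (-0.93, SE 0.43) and Fgf21 (-0.99, SE 0.60). Without wild-type vehicle 1, 21 of 40 genes passed (18 higher and 3 lower), against 24.9% of all genes. Without knockout vehicle 2, 4 passed (Vnn1, Mgll, Eci2 and Crot, all higher), against 9.86% of all genes. With array weights 24 passed (20 higher and 4 lower), against 30.6% of all genes, and array weights also gave 2 calls in knockout alone (Cidec and Acot2, both lower), against 3.65%. The set's median was -0.063 on slide 1, 0.51 on slide 2 and -0.16 without the 4 arrays apart, where 6 of 40 were positive.

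Among the regulators, Ppara itself had 5.94, 5.73 and 6.14 in knockout IIAEK and 4.64, 6.16 and 4.84 in knockout vehicle. It had 5.70, 6.27 and 5.89 in wild-type IIAEK and 6.30, 4.56 and 4.89 in wild-type vehicle. The IIAEK arrays were close together in both genotypes, while 1 vehicle array of each genotype lay above them and the other 2 well below. The IIAEK change was 0.72 (SE 0.47) in knockout and 0.70 (SE 0.47) in wild type, and -0.22 and -0.35 without the 4 arrays apart. Creb3l3, a hepatic transcription factor that acts with PPARalpha on Fgf21, had its 4 lowest values on the 4 arrays apart, over a smaller range, with means of 6.78 ± 0.094, 6.68 ± 0.34, 6.78 ± 0.093 and 6.47 ± 0.43 in knockout IIAEK, knockout vehicle, wild-type IIAEK and wild-type vehicle (SD, n = 3 each).

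In carnitine-dependent uptake, Cpt1a was the gene with a negative IIAEK change in both genotypes. It had 5.47, 5.70 and 5.69 in knockout IIAEK and 4.93, 5.67 and 5.20 in wild-type IIAEK, and its IIAEK change was -0.16 (SE 0.22) in knockout and -0.076 (SE 0.22) in wild type. Its partner Cpt2, on the inner membrane, had a change of 0.18 (SE 0.33) in knockout and 0.58 (SE 0.33) in wild type. Slc25a20, the carnitine-acylcarnitine carrier, had 2.55, 2.59 and 2.57 in knockout IIAEK and 2.13, 2.82 and 1.95 in knockout vehicle. It had 2.38, 3.01 and 2.49 in wild-type IIAEK and 2.54, 1.14 and 1.67 in wild-type vehicle (change 0.84, SE 0.34). Here wild-type vehicle 1 lay within the IIAEK range. Crat gave -0.046 (SE 0.37) in knockout and 0.79 (SE 0.37) in wild type.

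The mitochondrial beta-oxidation genes had a positive IIAEK change in 7 of 9 in knockout and in 9 of 9 in wild type. The wild-type IIAEK change was lowest for the medium-chain dehydrogenase Acadm (0.25, SE 0.18) and highest for the enoyl-CoA isomerase Eci1 (0.84, SE 0.33). Between these lay Acadl (0.38), Hadhb (0.36), Hadha (0.41), the electron carrier oxidoreductase Etfdh (0.41), the very-long-chain dehydrogenase Acadvl (0.56), the thiolase Acaa2 (0.59) and Decr1. In knockout the IIAEK change of the 9 genes ran from -0.14 in Hadhb to 0.46 in Acaa2, with a median of 0.079. Eci1 had 6.23, 6.41 and 6.26 in wild-type IIAEK and 6.23, 5.16 and 4.99 in wild-type vehicle, and its replicate 1 values differed by 0.0037.

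In peroxisomes, Pex11a, which drives peroxisome division, had 5.80, 5.82 and 5.99 in knockout IIAEK and 5.09, 6.28 and 5.08 in knockout vehicle. It had 5.93, 6.62 and 6.33 in wild-type IIAEK and 6.28, 4.43 and 4.83 in wild-type vehicle (change 1.12, SE 0.45). Eci2, an enoyl-CoA isomerase, had 7.41, 7.32 and 7.34 in wild-type IIAEK and 7.23, 6.31 and 6.25 in wild-type vehicle, with no overlap (change 0.76, SE 0.30). The thiolases Acaa1a and Acaa1b are close paralogs, and whether their probes read each other's transcript was not tested. The IIAEK change of Acaa1b in wild type had opposite signs on the slides, -0.64 on slide 1 and 1.89 on slide 2, and Acaa1a gave -0.13 and 0.47. The second probe of Acaa1a had a wild-type change of 1.04, against 0.27 for the brighter one. Decr2, the peroxisomal dienoyl-CoA reductase, gave 0.24 (SE 0.23) in knockout and 0.31 (SE 0.23) in wild type, and Ech1 gave 0.16 (SE 0.27) in knockout.

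The CYP4A genes of omega-oxidation ranged widely over the vehicle arrays. Cyp4a10, a fatty acid omega-hydroxylase widely used as a readout of PPARalpha in rodents, had 5.55, 5.99 and 6.19 in knockout IIAEK and 6.54, 7.12 and 5.51 in knockout vehicle. It had 6.61, 7.26 and 7.28 in wild-type IIAEK and 7.26, 4.67 and 4.88 in wild-type vehicle. The IIAEK change was -0.48 (SE 0.62) in knockout and 1.45 (SE 0.62) in wild type, and the 3 probes of the gene gave 1.45 to 1.80 in wild type. Cyp4a14, a second CYP4A hydroxylase, had 1.97, 1.36 and 0.93 in knockout IIAEK and 1.43, 2.48 and -0.38 in knockout vehicle. It had 2.56, 3.38 and 3.02 in wild-type IIAEK and 3.29, 0.61 and 0.27 in wild-type vehicle (changes 0.24, SE 0.82, and 1.59, SE 0.82). In both CYP4A genes wild-type vehicle 1 lay within the wild-type IIAEK range, and wild-type vehicle 2 and 3 lay below every IIAEK array. Aldh3a2, which oxidises fatty aldehydes, gave 0.12 (SE 0.29) in knockout and 0.62 (SE 0.29) in wild type.

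The thioesterases are close paralogs that lie side by side in the mouse genome, and cross-reading between their probes was not tested. Acot1, the cytosolic form, had 5.52, 5.88 and 5.74 in knockout IIAEK and 6.0, 6.87 and 5.66 in knockout vehicle. It had 5.95, 6.79 and 7.06 in wild-type IIAEK and 6.51, 4.08 and 5.06 in wild-type vehicle, where replicate 1 lay within the IIAEK range. The IIAEK change of Acot1 was -0.46 (SE 0.54) in knockout and 1.38 (SE 0.54) in wild type. Acot2 had 1.09, 2.17 and 2.30 in wild-type IIAEK and 1.55, 1.74 and 2.75 in wild-type vehicle, which overlapped. Acot3, a peroxisomal form, had 1.33, 2.67 and 4.18 in wild-type IIAEK and 2.0, 1.59 and 1.40 in wild-type vehicle (change 1.07, SE 0.57). Acot4, another peroxisomal form, gave -0.18 (SE 0.31) in knockout and 0.58 (SE 0.31) in wild type. Acot3 in knockout gave -0.080 (SE 0.57).

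**Figure D5:**
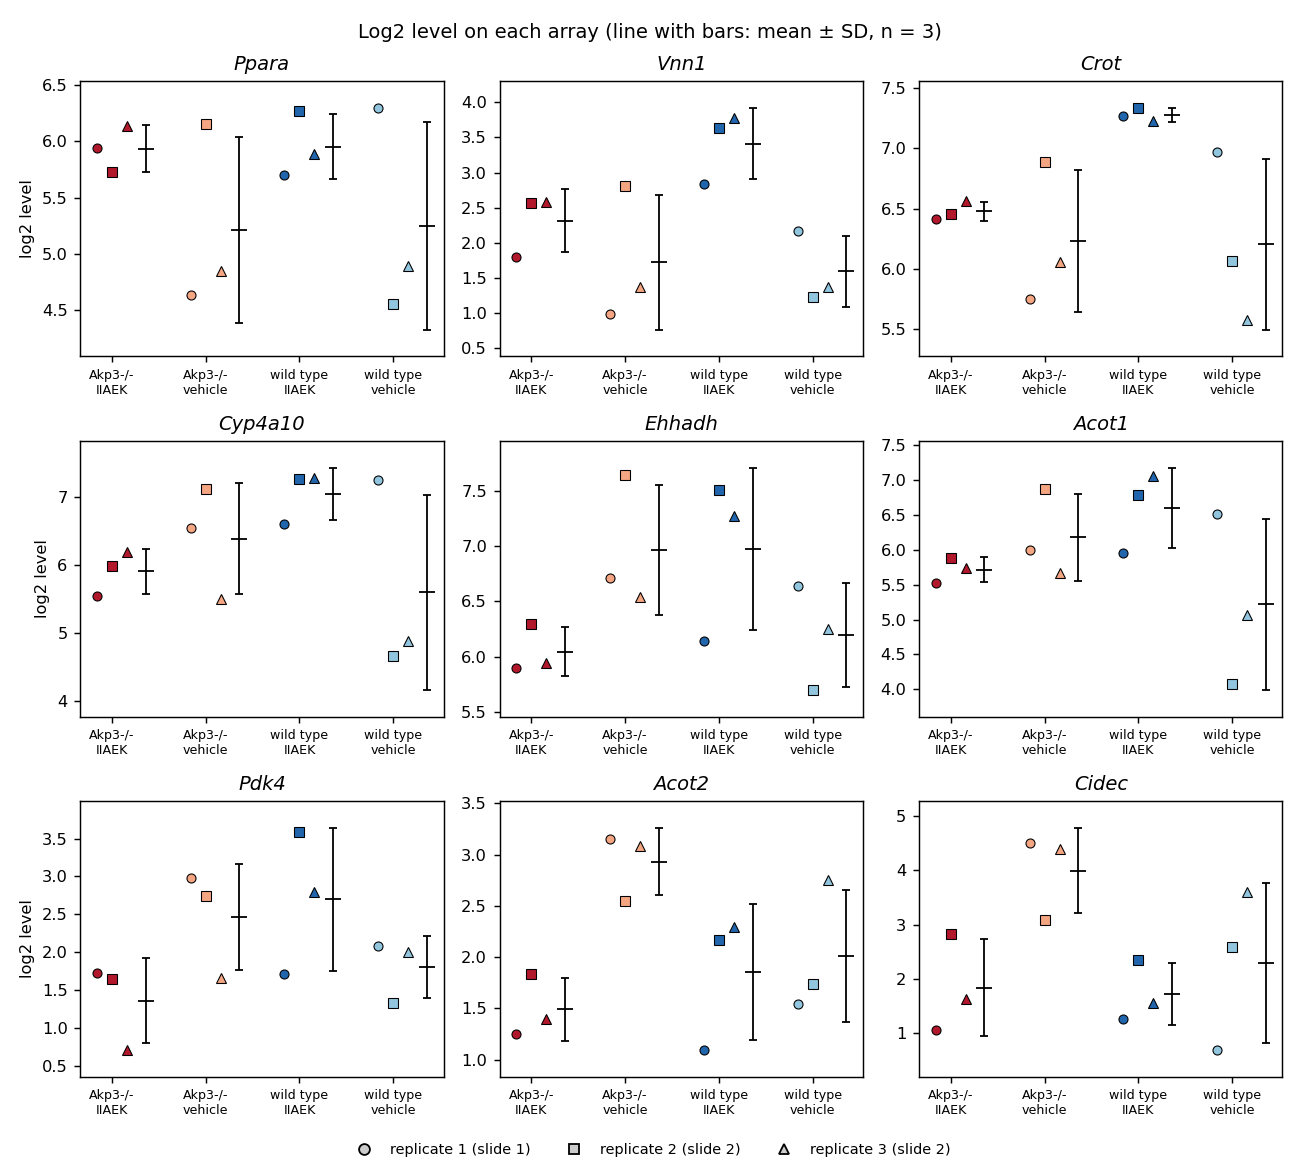
Each panel gives the log2 level of a gene on every array, by group, with the symbol for the replicate (circle on slide 1, square and triangle on slide 2) and the mean ± SD (n = 3) beside it. Wild-type vehicle 1 lies above the other wild-type vehicle arrays in 7 of 9 panels, and Cidec and Acot2 are highest on knockout vehicle 1 (4.51 and 3.15).

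Of the lipid droplet, lipase, uptake and binding genes, Plin2, which coats droplets, had 7.15, 7.11 and 7.30 in knockout IIAEK and 7.31, 7.98 and 7.35 in knockout vehicle (change -0.36, SE 0.25). It had 7.29, 7.88 and 7.68 in wild-type IIAEK and 7.54, 6.71 and 7.23 in wild-type vehicle (change 0.46, SE 0.25). The knockout groups were apart by a small margin, 7.30 on knockout IIAEK 3 against 7.31 on knockout vehicle 1, and the wild-type groups overlapped. Plin5, which links droplets to mitochondria, gave 0.062 (SE 0.26) in knockout and 0.63 (SE 0.26) in wild type. Mgll, which releases fatty acids from monoacylglycerols, had 5.0, 5.18 and 5.14 in knockout IIAEK and 3.99, 5.26 and 3.83 in knockout vehicle. It had 4.62, 5.33 and 5.20 in wild-type IIAEK and 5.06, 2.90 and 3.28 in wild-type vehicle (change 1.30, SE 0.52), and the 4 arrays apart were its 4 lowest. Fabp1, the liver fatty acid binding protein whose promoter is printed above, had 9.37, 9.19 and 9.33 in knockout IIAEK and 8.40, 9.30 and 8.66 in knockout vehicle. It had 9.64, 9.41 and 9.36 in wild-type IIAEK and 9.80, 8.80 and 8.49 in wild-type vehicle (change 0.44, SE 0.32). Cidec had 1.26, 2.35 and 1.55 in wild-type IIAEK and 0.69, 2.58 and 3.61 in wild-type vehicle, a spread within vehicle (SD 1.48, n = 3) wider than its wild-type change.

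Among the secreted products, Fgf21, a fasting hormone made by liver, had 1.40, 1.22 and 0.86 in knockout IIAEK and 2.19, 0.92 and 4.16 in knockout vehicle. It had 0.26, 2.22 and 1.60 in wild-type IIAEK and 0.67, 2.14 and 3.43 in wild-type vehicle. Its highest values were on knockout vehicle 3 and wild-type vehicle 3, and the IIAEK change was -1.26 (SE 0.85) in knockout and -0.72 (SE 0.85) in wild type. Angptl4, an inhibitor of lipoprotein lipase, gave -0.21 (SE 0.32) in knockout and 0.22 (SE 0.32) in wild type. It had 6.53, 6.16 and 6.56 in knockout IIAEK and 6.59, 7.27 and 6.76 in wild-type IIAEK, which did not overlap (difference -0.46, SE 0.32). Vnn1 had 0.99, 2.81 and 1.37 in knockout vehicle, so knockout vehicle 2 exceeded all knockout IIAEK values and the change in knockout was 0.59 (SE 0.46).

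Outside the 40 genes, 92 further genes of fatty acid and ketone metabolism, lipolysis and lipogenesis were tested, and 0 of 92 passed in any of the 6 comparisons. The IIAEK change was positive in 60 of 92 in knockout (median 0.20) and in 67 of 92 in wild type (median 0.41), against 55.7% of all genes in knockout and 55.2% in wild type. Without the 4 arrays apart the medians were -0.17 in knockout (31 of 92 positive) and -0.028 in wild type (45 of 92), and on slide 1 they were 0.20 in knockout and -0.049 in wild type (35 of 92). The difference between knockout and wild type was negative in 54 of 92 under IIAEK (median -0.08). The lowest p values belonged in knockout to the acyl-CoA synthetases Acsl3 (-0.72, SE 0.20) and Acsl4 (-1.05, SE 0.38). In wild type they belonged to Pdk1, a pyruvate dehydrogenase kinase (1.17, SE 0.39), and Acacb, the acetyl-CoA carboxylase whose product blocks CPT1 (2.23, SE 0.76). Between genotypes they were the lipase Pnpla2 (0.74, SE 0.22) and Cpt1b (0.66, SE 0.26) under vehicle, and Acsl3 (-0.67, SE 0.20) and Pdk2 (0.70, SE 0.26) under IIAEK. For the difference between both IIAEK changes they were Cpt1b (-1.27, SE 0.37) and Acot5 (-1.90, SE 0.80), and for the average Acsl4 (-1.03, SE 0.27) and Hadh (0.53, SE 0.14).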

How the data were processed

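Livers of 12 mice (3 per group) were measured on 12 Agilent arrays. Per the file headers, the scanner intensity was extracted with Agilent Feature Extraction 10.7.3.1 and is already background-subtracted. The 62976 spots of an array held 59305 non-control spots, with 0 saturated, averaged to 56605 probes, of which 32994 were named (22911 symbols) through RefSeq transcript accessions (tables of GRCm38.p6). The main values are log2 of that intensity minus each array's 75th percentile. The deposited series table holds log2 values whose scale and centring no label gives. They matched the main values once a probe's own median was subtracted (r of at least 0.99998 on every array, same direction) and were used as an alternative. Their array medians were 0.0147, -0.0486 and 0.053 in knockout IIAEK, -0.128, -0.0517 and -0.110 in knockout vehicle, 0.155, 0.0672 and 0.0714 in wild-type IIAEK and 0.172, -0.0389 and -0.154 in wild-type vehicle.

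A gene's brightest probe by 12-array mean stood for it, and genes above background on every array of at least 1 group were tested (26405). limma 3.58.1 in R 4.3.3 fitted all 4 groups without a block (lmFit and eBayes, two-sided, Benjamini-Hochberg over all genes tested, 8 residual degrees of freedom), and a gene passed at adjusted p under 0.05. The p-values rest on the spread between arrays of a group, 1 mouse each, which also holds differences between arrays, slides and scan days. The scripts' test was run on simulated data with known changes. Those had a smaller spread than the arrays and no pattern shared between arrays, so they do not show how the test performs here. The number of arrays limits the precision. Slide and scan day fell together and cannot be told apart. The deviations of same-numbered arrays had correlations of mixed sign (-0.546 to 0.645), so the numbers were not treated as pairs.

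The 40 genes, the further pathway genes and the marker lists were chosen with earlier results of these data known. Genes named for a comparison were those that passed, filled up to 4 in each direction by the smallest unadjusted p, plus 12 always named, and the other genes of the set follow by role. Of the further pathway genes, the 2 with the smallest p per comparison were named, and some others are not reported here. Alternatives were normexp background correction (offset 50), quantile normalization, the series table, other filters on dim probes, the mean over probes, slide or replicate number as a block, each slide alone, fits on the compared groups, array weights and leaving out each array. Leaving out the 4 vehicle arrays that stood apart was added after seeing the data.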

Additional observations from a re-analysis of the deposited data

How the results depend on the processing

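Counts of all genes that passed in limma were 1 for IIAEK in wild type, 0 in knockout, 1 for genotype under vehicle, 2 for genotype under IIAEK, 0 for the difference between both IIAEK changes and 0 for the average, so small counts shift readily. With no filter they were 2 in wild type, 1 in knockout, 0 for genotype under IIAEK and 1 for the average. With slide as a block they were 0 in wild type and 0 for genotype under IIAEK, and with the replicate block likewise 0 and 0. The replicate block changed no call of the set. Normexp gave 2 for genotype under vehicle, the mean over probes 0 for genotype under IIAEK. Fits on the compared groups gave 0 in wild type, 1 in knockout, 0 for genotype under vehicle and 10 under IIAEK. Slide 2 alone gave 0 in wild type, 1 in knockout, 0 for genotype under IIAEK and 4 for the average. Array weights gave 0 in wild type, 965 in knockout, 54 for genotype under IIAEK and 8071 for the average, with 2 of the set in knockout and 24 in the average. Without the 4 arrays apart (added after seeing the data) they were 58 for genotype under vehicle, 10 under IIAEK, 1 for the difference and 1 for the average.

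The set's median change was -0.24, -0.45, 0.34 and -0.063 on slide 1 alone (wild type, genotype under vehicle, difference, average), where each group has 1 array and no test. On slide 2 alone it was 1.01, 0.58 and -0.91 for the first 3 of these. Without the 4 arrays apart it was 0.079 in wild type, -0.32 in knockout and -0.16 for the average.

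On slide 1 alone, the change had the other sign in 6 of 40 genes in knockout and 29 in wild type, 26 for genotype under vehicle, 13 under IIAEK, 28 for the difference and 17 for the average. Under the other settings, signs of the named genes turned as follows. Quantile normalization gave 0.040 for Decr2 under vehicle and -0.025 for the Fabp1 difference. The mean over probes gave -0.15 for Acaa1a under IIAEK and -0.041 for the Ppara difference. Array weights gave -0.068 for the Ppara and -0.085 for the Fabp1 difference. Slide 2 gave 0.20 for Cpt1a in wild type, 0.29 for Decr2 and 0.34 for Fabp1 under vehicle, -0.045 for Hadha under IIAEK, and -0.92 for the Ppara and -0.47 for the Fabp1 difference. Without the 4 arrays apart, wild-type IIAEK changes were -0.35 for Ppara, -0.20 for Cyp4a10, -0.31 for Cyp4a14, 0.31 for Acot2, 1.03 for Cidec, 0.43 for Cd36, 0.69 for Fgf21 and -0.51 for Angptl4. Knockout changes were then -0.22 for Ppara, -0.093 for Acaa2, -1.06 for Cyp4a14, -0.15 for Mgll, -0.0057 for Fabp1, 0.24 for Fgf21 and -0.49 for Vnn1. Genotype under vehicle gave 0.16 for Acadl and 0.051 for Cd36, and the Cd36 difference was -0.13. The average gave -0.052 for Crot, -0.046 for Eci2, -0.079 for Mgll, 0.37 for Cd36 and 0.47 for Fgf21.

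Leaving out 1 array in turn, calls of the set ranged from 0 to 20 in wild type and from 0 to 21 for the average, the highest without wild-type vehicle 1. Calls over all genes ranged from 0 to 3939 in wild type, 0 to 5 in knockout, 1 to 2 for genotype under vehicle, 0 to 4 under IIAEK, 0 to 1 for the difference and 0 to 6565 for the average. Gene changes ranged in wild type from -0.29 to 0.092 (Cpt1a), -0.39 to 0.22 (Acot2), -1.37 to 0.087 (Cidec) and -0.058 to 0.59 (Angptl4), and in knockout from -0.53 to 0.90 (Cyp4a14). Under vehicle they ranged from -0.28 to 0.18 (Decr2), -0.51 to 0.14 (Fabp1) and -1.03 to 0.27 (Cd36), and under IIAEK from -0.035 to 0.22 (Cpt2) and -0.062 to 0.19 (Acaa1a). The difference ranged from -0.51 to 0.49 (Ppara), -0.32 to 0.34 (Fabp1) and -0.35 to 0.95 (Cd36). Of 768 values with an array left out, 722 kept direction and call, and of 753 under the other settings, which hold no single genes on slide 1 alone, 708 did. These counts do not measure robustness. No gene of the set passed in the main fit, so no call could be lost. Leaving out an array outside the compared groups cannot change a log2 change, and the series table nearly repeats the main values. Where direction or call did not hold, the causes were not tested.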
